A study of Danio rerio with 8 samples.

Results

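The potassium channel genes described here were all genes of the count table whose lower-case symbol begins with kcn, further letters and a digit. They numbered 124 of 31953 genes and carried 103 distinct symbols, because 37 of them share a symbol with a relative and are told apart here by their Ensembl identifier. The study sequenced polyA RNA of whole zebrafish larvae of the TLEK strain, 5 days after fertilization. It had 4 libraries from larvae homozygous for a nonsense mutation in upf1 and 4 from wild types, and was set up to ask what upf1 does as lymphocytes develop. The gene upf1 encodes an RNA helicase needed for nonsense-mediated decay, which removes transcripts with a premature stop codon. The labels do not say how many larvae made up a library or whether the replicates came from separate clutches, so a p-value here reflects only how far these libraries spread, which may be technical.

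Potassium channels let potassium ions cross the membrane down their gradient, which sets the resting potential and ends action potentials. Voltage-gated channels (the Kv, EAG and KCNQ groups) open on depolarization, inward rectifiers (kcnj) hold the resting potential or move potassium across epithelia, and tandem pore domain (K2P) channels (kcnk) carry leak current. Calcium-activated and sodium-activated channels (kcnma, kcnn, kcnt) open when those ions enter the cell, and small families of auxiliary subunits (kcnab, kcnip, kcne, kcnmb) adjust how the pore-forming subunits open and close. In fish larvae these genes act in neurons, muscle, heart, sensory cells and the ion-transporting cells of the skin.

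Library totals ran from 75335048 to 94331733 counts in mutants and from 86872276 to 96104507 in wild types, and the kcn genes made up between 0.0707% and 0.0941% of a library. Of 10 marker lists for cell types of a larva, 72 of 85 genes could be matched, and 0 of those matched had no counts. The upf1 mRNA was 2.21-fold higher in mutants (285 ± 7.51 CPM against 129 ± 4.35 CPM in wild types, SD, n = 4 each, edgeR adjusted p = 1.06e-05). Every mutant lay above every wild type, so upf1 mRNA separated the libraries by label. An mRNA amount does not show the mutation itself, so the genotypes are not checked by it. CPM are counts scaled to the effective library size and given per 1000000, so they can be compared between libraries but not between genes, since transcript lengths were not available. Because RNA came from whole larvae, fewer cells of a type and less RNA per cell cannot be told apart.

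Few potassium channel genes passed the test for a difference between the genotypes. Most of those that did were lower in mutants, and most of the lower ones were kcnj1 genes. Of the 124 genes, 122 had enough counts to be tested with edgeR's quasi-likelihood test, and at a Benjamini-Hochberg adjusted p of 0.05, 2 were higher and 8 lower in mutants. This was 8.2% of the members tested, against 14.2% of all 23680 genes tested. Higher calls made up 1.64% of members against 9.1% of all genes, and lower calls 6.56% of members against 5.11% of all genes. The lower calls fell on 5 of the 7 genes named kcnj1, the Kv1 gene kcna6a, the Kv4 gene kcnd1 and a copy of the silent subunit gene kcnv2. The 2 genes that rose were the K2P gene kcnk4a and the auxiliary subunit gene kcnab1b. Outside kcnj1, 3 of 115 members tested were lower and 2 higher, against 5.11% of all genes lower and 9.1% higher. The DESeq2 Wald test called 18 members lower and 3 higher, and limma voom 9 lower and 2 higher. Of all genes tested, DESeq2 called 20.4% and limma voom 14.5% in either direction. Of these calls over all genes, 56.4% with DESeq2 and 63.0% with limma voom were higher in mutants, unlike the mostly lower calls of members. At an unadjusted p of 0.05 in edgeR, 26 members were lower and 4 higher. The share of all genes at that unadjusted threshold was not read, so such counts have no background, here or below. Without wild type replicate 2, edgeR called 15 lower. It called 1 higher when mutant 1, mutant 4 or any of the wild types was dropped. The 2 genes not tested were a second kcns3 gene (ENSDARG00000029511) with 23 counts and a second kcnj10 gene (ENSDARG00000105022) with 6 counts over all 8 libraries.

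Across the family the log2 fold changes of mutants over wild types lay mostly just below 0. Their median was -0.18, against -0.01 for all genes tested. They were below 0 for 95 of 122 members (77.9%), against 50.8% of all genes. This was not particular to the kcn genes. Values below 0 were also found for 12 of 15 voltage-gated sodium channel genes and 37 of 49 calcium channel genes. They were found for 10 of 16 cyclic nucleotide-gated (HCN and CNG), 6 of 12 chloride channel and 10 of 16 sodium-potassium ATPase genes. The kcn median stayed below 0 under the other scalings, filters and tools tried, and was -0.15 when the 7 kcnj1 genes were set aside. Each scaling tried puts the bulk of genes near 0, so these fold changes are relative to other genes and show no absolute fall. The TMM scaling factors themselves split by genotype, at 1.02 to 1.11 in mutants and 0.893 to 0.977 in wild types. Their part in the shift was not tested. The libraries did not separate by genotype on the family median. Taken per library as log2(CPM + 0.1) minus the wild type mean, the family median was -0.11, 0.0054, -0.22 and -0.31 in mutant replicates 1 to 4, against 0.0065, -0.21, 0.071 and 0.10 in wild type replicates 1 to 4. Mutant replicate 2 thus lay with wild type replicate 1, and wild type replicate 2 with mutant replicate 3. The CPM of mutants and wild types did not overlap for 17 members (13.9%), 4 with mutants above and 13 with mutants below, against 21.2% of all genes (12.4% with mutants above and 8.71% with mutants below). The standard error of a member's log2 fold change had a median of 0.18. Of the 112 members that did not pass, 94 had a 95% confidence interval that lay within a 2-fold change in either direction, and 44 one within 1.5-fold.

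**Figure D1:**
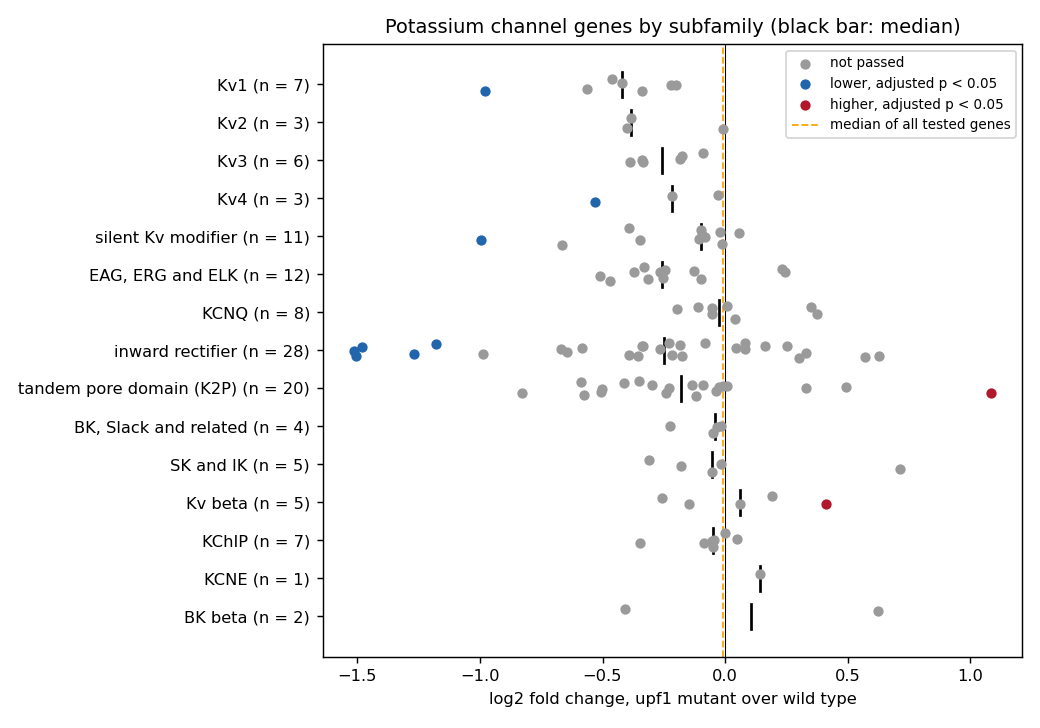
Log2 fold change of upf1 mutants over wild types for the 122 potassium channel genes tested, by subfamily. Each point is a gene, coloured by its edgeR call at an adjusted p of 0.05, and the black bars are subfamily medians; the 8 lower calls include 5 inward rectifier genes, and all 19 points of Kv1 to Kv4 lie below 0.

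The kcnj1 genes encode inward rectifiers of the ROMK type, known from the mammalian kidney, where they return potassium to the urine, and from potassium-secreting ionocytes in the skin of larval zebrafish. The gene ENSDARG00000089060 stood at 4.18, 2.88, 5.18 and 4.37 CPM in mutant replicates 1 to 4, against 13.8, 11.3, 10.7 and 11.7 CPM in wild type replicates 1 to 4. Every mutant lay below every wild type, with means of 4.15 ± 0.951 CPM against 11.8 ± 1.34 CPM (SD, n = 4 each). It was 2.85-fold lower (log2 fold change -1.51, SE 0.175, edgeR adjusted p = 6.21e-04). This was the smallest adjusted p in the family.

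A further 4 kcnj1 genes fell in the same range. ENSDARG00000090635 had 2.33, 1.59, 3.24 and 2.49 CPM in mutants, against 9.54, 4.45, 6.67 and 6.75 CPM in wild types (2.84-fold lower, edgeR adjusted p = 0.00646). ENSDARG00000086248 had 2.69, 1.71, 3.32 and 2.15 CPM in mutants, against 8.65, 5.07, 6.42 and 7.43 CPM in wild types (2.79-fold lower, edgeR adjusted p = 0.0036). In both genes mutant replicate 2 was the lowest library and wild type replicate 1 the highest, with a gap between the genotypes. ENSDARG00000088484 had 6.46, 3.45, 7.57 and 5.10 CPM in mutants, against 17.9, 10.7, 12.7 and 13.2 CPM in wild types (2.41-fold lower, edgeR adjusted p = 0.00914). ENSDARG00000091232 had 6.62, 2.55, 7.10 and 7.88 CPM in mutants, against 16.9, 14.9, 11.2 and 11.6 CPM in wild types (2.26-fold lower, edgeR adjusted p = 0.0337). These genotypes did not overlap in either gene, but the call of ENSDARG00000091232 was less firm. It was lost when mutant 1 or 3 or any wild type was dropped, with an adjusted p of 0.0549 to 0.0820 and kept without mutant 2 or mutant 4. The other 4 calls were kept whichever library was left out.

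The last 2 kcnj1 genes did not pass. ENSDARG00000090866 had 0.950, 1.04, 2.26 and 1.42 CPM in mutants, against 3.44, 2.99, 2.08 and 2.73 CPM in wild types (log2 fold change -0.99, 95% interval -1.64 to -0.33, edgeR adjusted p = 0.0518). The genotypes overlapped there, because mutant replicate 3 lay above wild type replicate 3. DESeq2 (adjusted p = 0.00912) and limma voom (adjusted p = 0.0357) called it lower, as did edgeR without mutant 3 (adjusted p = 0.0121) and with a filter of 1 CPM in 4 libraries (adjusted p = 0.0492). ENSDARG00000002666 had 1.82, 4.20, 3.03 and 2.88 CPM in mutants, against 2.37, 2.59, 2.21 and 2.51 CPM in wild types. Its log2 fold change was 0.30 (95% interval -0.22 to 0.82, edgeR adjusted p = 0.427), the only value above 0 among the 7. Whether it differs from the other kcnj1 genes in its change was not tested.

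**Figure D2:**
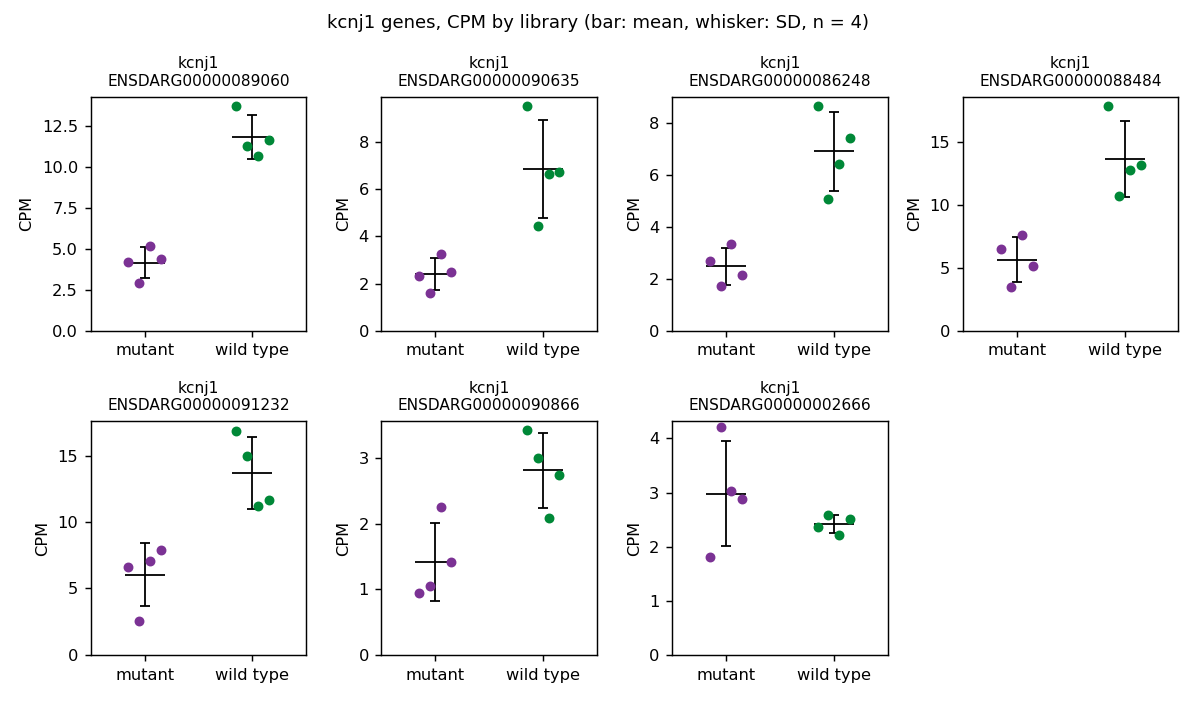
CPM of the 7 kcnj1 genes in each of the 4 mutant and 4 wild type libraries, with group means and SD, on linear axes that start at 0. Genotypes are apart in the first 5 panels and overlap in the panels of ENSDARG00000090866 and ENSDARG00000002666.

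Summed over the 7 genes, kcnj1 CPM were 25.0, 17.4, 31.7 and 26.3 in mutant replicates 1 to 4, against 72.5, 52.02, 52.00 and 55.9 in wild type replicates 1 to 4. The other inward rectifier genes summed to 112, 109.3, 109.5 and 100.1 CPM in mutants, against 126, 107, 138 and 138 CPM in wild types. The kcnj1 sums of the genotypes were well apart, while wild type replicate 2 put the rest of the subfamily in an overlap. A RefSeq annotation of a later zebrafish assembly (GRCz12tu) also lists 7 kcnj1 genes, of which 6 carry the symbol kcnj1a and follow each other with 0 other genes between them. The files do not say which identifier is which of these. Genes under 1 symbol may share reads if their sequences are alike, which was not measured here. The values of single kcnj1 genes are therefore uncertain, and the 5 calls may not be independent.

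Among the ionocyte markers matched, 1 of 7 was lower in mutants (14.3%, against 5.11% of all genes called lower and 14.2% in either direction). This was trpv6, the epithelial calcium channel of calcium-transporting ionocytes, at 69.7 ± 10.3 CPM in mutants against 132 ± 25.6 CPM in wild types (SD, n = 4 each, log2 fold change -0.92, edgeR adjusted p = 0.00613). The transcription factor gene foxi3b, which specifies ionocytes, did not pass (log2 fold change -0.54, edgeR adjusted p = 0.0688), though every mutant lay below every wild type. Its relative foxi3a did not pass either (log2 fold change 0.06, edgeR adjusted p = 0.926). With DESeq2, 2 of the 7 markers were lower. It called 20.4% of all genes in either direction, and 56.4% of those calls were higher in mutants. The list's carbonic anhydrase gene ca2 had a log2 fold change of 0.37 (edgeR adjusted p = 0.260). Over the list the log2 fold change had a median of -0.15, and its summed CPM ran from 410 to 481.1 in mutants and from 481.5 to 555 in wild types. Of the markers in this sum, trpv6 had the largest difference between group means. The marker with the highest CPM, atp6v1aa, averaged 253 ± 22.2 CPM in mutants and 256 ± 20.8 CPM in wild types (log2 fold change -0.01, edgeR adjusted p = 0.941). The list was drawn up for ionocytes at large, and the potassium-secreting type was not read on its own. The part of these markers in the kcnj1 values was not tested.

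**Figure D3:**
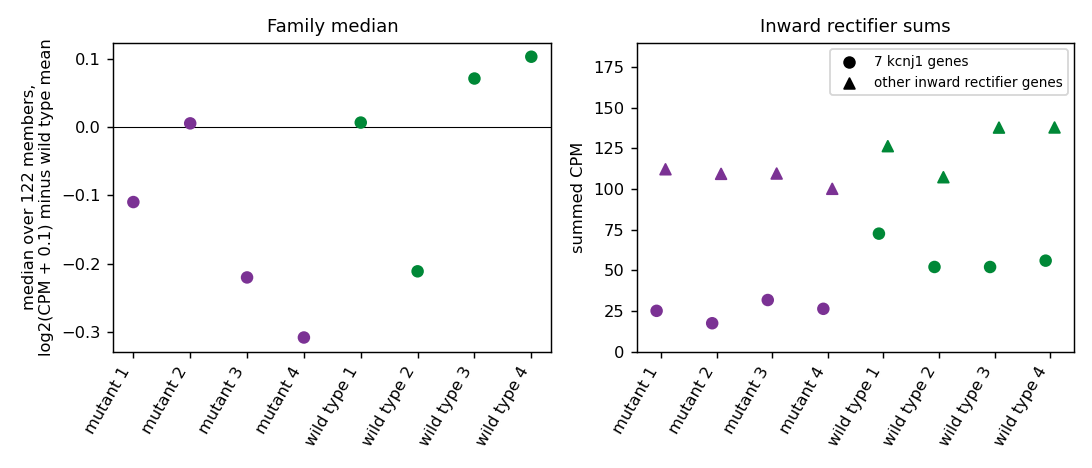
Left, the median over 122 potassium channel genes of log2(CPM + 0.1) minus the wild type mean, for each library; right, the summed CPM of the 7 kcnj1 genes (circles) and of the other inward rectifier genes (triangles). Mutant replicate 2 lies among the wild types on the left, and the circles of the mutants lie at or under 31.7 CPM on the right, those of the wild types at or above 52.00 CPM.

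Of the 21 other inward rectifier genes tested, 13 had a log2 fold change below 0, with a median of -0.18. Of these 21, 0 passed edgeR's test, against 3 lower at an unadjusted p of 0.05, 2 lower with DESeq2 and 0 with limma voom. Over all genes, edgeR called 14.2%, DESeq2 20.4% and limma voom 14.5% in either direction. The gene kcnj12b, of the strong inward rectifiers that hold the resting potential of muscle, had 16.1, 11.8, 21.6 and 13.9 CPM in mutants, against 25.3, 18.4, 29.2 and 26.2 CPM in wild types (log2 fold change -0.64, edgeR adjusted p = 0.0596, DESeq2 adjusted p = 0.0111). Mutant replicate 3 lay above wild type replicate 2, so the genotypes overlapped, and the gene passed in edgeR without either of them (adjusted p = 0.0203 without mutant 3 and 0.0317 without wild type 2). The gene kcnj11 encodes a pore subunit of the ATP-sensitive channels that couple metabolism to excitability. It averaged 4.36 ± 0.938 CPM in mutants against 6.54 ± 1.29 CPM in wild types (log2 fold change -0.58, edgeR adjusted p = 0.0755, DESeq2 adjusted p = 0.0250, edgeR adjusted p = 0.0445 without wild type 2). The inward rectifier genes kcnj11l and kcnj8 lay above 0, with log2 fold changes of 0.08 (edgeR adjusted p = 0.901) and 0.33 (edgeR adjusted p = 0.330). Of 2 sulfonylurea receptor genes listed as partners of ATP-sensitive channels, 1 was read. This was abcc9, the receptor of muscle and vessels, at 38.9 ± 3.25 CPM in mutants against 34.6 ± 5.38 CPM in wild types (log2 fold change 0.17, edgeR adjusted p = 0.387). The other, abcc8, was left out because its symbol was shared by more than 1 gene. The inward rectifier gene with the most counts was kcnj6, a G-protein-gated channel of neurons, at 21.0 ± 2.53 CPM in mutants against 23.9 ± 1.15 CPM in wild types, which did not pass.

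The pore-forming voltage-gated subunits of the Kv1 to Kv4 subfamilies include the channels that set firing threshold, repolarize the action potential and allow fast spiking. All 19 of these genes tested had a log2 fold change below 0, with a median of -0.34, and 2 of them passed edgeR's test, both lower in mutants. At an unadjusted p of 0.05, 9 were lower, and DESeq2 called 5 lower. Of all genes tested, 50.8% had a log2 fold change below 0. The edgeR test called 14.2% of all genes in either direction and 5.11% lower. DESeq2 called 20.4% in either direction, and 56.4% of those calls were higher in mutants. The pool of Kv1 to Kv4 was not among the planned lists, which held these subfamilies separately. By subfamily the medians were -0.42 over 7 Kv1 genes, -0.38 over 3 Kv2 genes, -0.26 over 6 Kv3 genes and -0.22 over 3 Kv4 genes. The number below 0 depended on the libraries. It was 16 without mutant replicate 4, 17 without mutant replicate 3, and 18 without mutant replicate 2, wild type replicate 3 or wild type replicate 4.

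The Kv1 gene kcna6a, a delayed rectifier subunit of neurons, had 6.05, 6.48, 8.65 and 6.14 CPM in mutants, against 13.4, 10.8, 18.1 and 11.5 CPM in wild types. Replicate 3 was the highest library of each genotype, and every mutant lay below every wild type. Means were 6.83 ± 1.23 CPM in mutants and 13.5 ± 3.26 CPM in wild types (SD, n = 4 each, log2 fold change -0.98, SE 0.185, edgeR adjusted p = 0.00858). The Kv4 gene kcnd1, of the A-type channels that inactivate within milliseconds, had 4.98, 6.46, 6.63 and 6.51 CPM in mutants, against 8.90, 8.58, 8.68 and 9.32 CPM in wild types. The wild types lay close together and all above the mutants (log2 fold change -0.53, SE 0.115, edgeR adjusted p = 0.0161). Both calls were kept whichever library was left out.

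Other members of these subfamilies did not pass. The Kv1 gene kcna1 (ENSDARG00000062942), whose mammalian counterpart sits along axons, averaged 9.004 ± 1.17 CPM in mutants against 13.3 ± 2.79 CPM in wild types (log2 fold change -0.56, edgeR adjusted p = 0.0544, DESeq2 adjusted p = 0.0104). Without wild type replicate 2 its edgeR adjusted p was 0.00949, and with DESeq2's size factors 0.0487. The Kv2 gene kcnb2a averaged 33.7 ± 6.56 CPM in mutants against 44.5 ± 4.32 CPM in wild types, with mutant replicate 2 inside the wild type range (log2 fold change -0.40, edgeR adjusted p = 0.0810, DESeq2 adjusted p = 0.0311). Without mutant 2 its edgeR adjusted p was 0.0111. The Kv3 gene kcnc1 (ENSDARG00000051852), of fast-spiking neurons, averaged 22.6 ± 1.82 CPM in mutants and 25.6 ± 4.39 CPM in wild types. The Kv4 gene kcnd3 averaged 14.6 ± 1.88 CPM in mutants and 14.9 ± 2.15 CPM in wild types (log2 fold change -0.03).

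Silent Kv subunits form no channel alone and alter Kv2 channels when they join them. Of 11 tested, 1 passed edgeR's test, with a median log2 fold change of -0.10. This was kcnv2 (ENSDARG00000062906), a subunit of the photoreceptor inner segment, with 0.844, 1.73, 1.29 and 1.27 CPM in mutants, against 2.58, 2.42, 2.91 and 2.32 CPM in wild types. Every mutant lay below every wild type (1.99-fold lower, SE of the log2 fold change 0.221, edgeR adjusted p = 0.0176), but the call was lost without wild type replicate 3 (adjusted p = 0.0541). The second gene named kcnv2 (ENSDARG00000076644) averaged 4.86 ± 1.36 CPM in mutants and 5.14 ± 1.62 CPM in wild types (log2 fold change -0.08, edgeR adjusted p = 0.868). Whether the change differs between the 2 genes was not tested. With the called kcnv2 gene included, 3 silent subunit genes were lower at an unadjusted p of 0.05, 2 with DESeq2 and 1 with limma voom. Of all genes, DESeq2 called 20.4% and limma voom 14.5% in either direction. The gene kcng4 averaged 3.84 ± 0.578 CPM in mutants against 5.04 ± 0.309 CPM in wild types, with every mutant below every wild type. Its log2 fold change was -0.39 (edgeR adjusted p = 0.0857, DESeq2 adjusted p = 0.0346, edgeR adjusted p = 0.0386 without mutant 4). Of 4 photoreceptor markers matched, 2 were lower (50%, against 5.11% of all genes called lower and 14.2% in either direction). They were the cone phosphodiesterase gene pde6c and the cone transducin gene gnat2, the latter at 408 ± 75.9 CPM in mutants against 636 ± 39.6 CPM in wild types (log2 fold change -0.64, edgeR adjusted p = 0.0139). DESeq2 called 3 of the 4 lower, and 3 were lower at an unadjusted p of 0.05. The rod transducin gene gnat1 did not pass (log2 fold change -0.02, edgeR adjusted p = 0.965). Nor did the cone opsin gene opn1mw1, which had the highest CPM of the list (781 ± 186 CPM in mutants against 1195 ± 205 CPM in wild types, edgeR adjusted p = 0.0594). Its log2 fold change was -0.61, with every mutant below every wild type. The list summed to 1173 to 1932 CPM in mutants and 2120 to 2720.5 CPM in wild types, and its part in the kcnv2 value was not tested. The call of pde6c was lost when mutant 1, 3 or 4 or wild type 4 was dropped, with an adjusted p of 0.0562 to 0.0675.

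The EAG, ERG and ELK channels (kcnh) repolarize heart and neurons, and the KCNQ channels (kcnq) hold a slow brake on excitability. Of 12 kcnh genes, 10 had a log2 fold change below 0, with a median of -0.26. None passed edgeR's test, against 1 lower at an unadjusted p of 0.05, 1 lower by DESeq2 and 0 by limma voom. The shares of all genes called in either direction were 14.2% with edgeR, 20.4% with DESeq2 and 14.5% with limma voom. Of 8 kcnq genes, 4 lay below 0, with a median of -0.02, and 0 passed with edgeR, 0 at an unadjusted p of 0.05, 0 with DESeq2 and 0 with limma voom.

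Of the K2P genes, 1 rose. The gene kcnk4a encodes a channel of the TRAAK type, which membrane stretch opens in mammalian neurons. It had 3.67, 3.27, 4.81 and 3.94 CPM in mutants, against 2.38, 1.70, 1.66 and 1.67 CPM in wild types. All mutants lay above all wild types, and means of 3.92 ± 0.653 CPM and 1.85 ± 0.350 CPM differed 2.12-fold (SD, n = 4 each, log2 fold change 1.08, SE 0.182, edgeR adjusted p = 0.0048). The call was kept whichever library was left out. It was the only K2P gene that passed edgeR's test. Of the 20 tested, 16 had a log2 fold change below 0, and the median was -0.18. At an unadjusted p of 0.05, 3 were lower, against 2 lower with DESeq2 (kcnk6 and kcnk10a) and 0 lower with limma voom. In either direction edgeR called 14.2%, DESeq2 20.4% and limma voom 14.5% of all genes. The gene kcnk6, of the TWIK type, averaged 12.8 ± 1.51 CPM in mutants against 17.0 ± 2.34 CPM in wild types (log2 fold change -0.41, edgeR adjusted p = 0.0550, DESeq2 adjusted p = 0.0145), with mutant replicate 4 above wild type replicate 2. It passed in edgeR with DESeq2's size factors (adjusted p = 0.0491), without mutant 4 (adjusted p = 0.0364) and without wild type 2 (adjusted p = 0.0349). The gene kcnk10a, of the stretch-sensitive TREK type, had a log2 fold change of -0.50 (edgeR adjusted p = 0.0892, DESeq2 adjusted p = 0.0326). In edgeR it passed without mutant 2 (adjusted p = 0.0476) and without wild type 2 (adjusted p = 0.0351).

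Among the channels gated by calcium or sodium, the large-conductance calcium-activated channel gene kcnma1a averaged 78.7 ± 8.81 CPM in mutants and 79.6 ± 8.79 CPM in wild types. Its log2 fold change was -0.02 with a 95% interval of -0.26 to 0.23. The sodium-activated channel gene kcnt1 (ENSDARG00000104868) averaged 12.2 ± 1.74 CPM in mutants and 14.3 ± 2.29 CPM in wild types, and the small-conductance channel gene kcnn1a 47.1 ± 7.81 CPM in mutants and 58.5 ± 7.56 CPM in wild types (log2 fold change -0.31, edgeR adjusted p = 0.158). The intermediate-conductance channel gene kcnn4, known from red blood cells, epithelia and T cells, had 2.13, 1.46, 1.38 and 1.24 CPM in mutants, against 0.868, 1.06, 0.861 and 0.996 CPM in wild types. The genotypes did not overlap, yet the gene missed the threshold in edgeR (log2 fold change 0.71, adjusted p = 0.0578) and passed it in DESeq2 (adjusted p = 0.0284) and in edgeR with a filter of 1 CPM in 4 libraries (adjusted p = 0.0454).

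Auxiliary subunits held the other rise. The gene kcnab1b encodes a Kv beta subunit, which in mammals speeds the inactivation of Kv1 channels. It had 12.2, 15.3, 11.7 and 14.0 CPM in mutants, against 10.1, 9.45, 9.44 and 11.01 CPM in wild types. All mutants lay above all wild types by a small margin (1.33-fold, log2 fold change 0.41, SE 0.110, edgeR adjusted p = 0.0364). The call was kept only without mutant replicate 3. It was lost when mutant 1, 2 or 4 or any wild type was dropped, with an adjusted p of 0.0510 to 0.1002. The 5 Kv beta genes had a median log2 fold change of 0.06, with 2 below 0. The calcium-binding KChIP subunits, partners of Kv4 channels, had a median of -0.05 over 7 genes, and kcnip1b averaged 25.8 ± 2.40 CPM in mutants and 26.6 ± 2.77 CPM in wild types. The BK beta subunit gene kcnmb2 averaged 4.95 ± 1.55 CPM in mutants and 3.22 ± 0.224 CPM in wild types (log2 fold change 0.62, edgeR adjusted p = 0.109), and kcne4, whose product damps Kv currents, 5.29 ± 1.30 CPM in mutants and 4.80 ± 0.456 CPM in wild types.

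**Figure D4:**
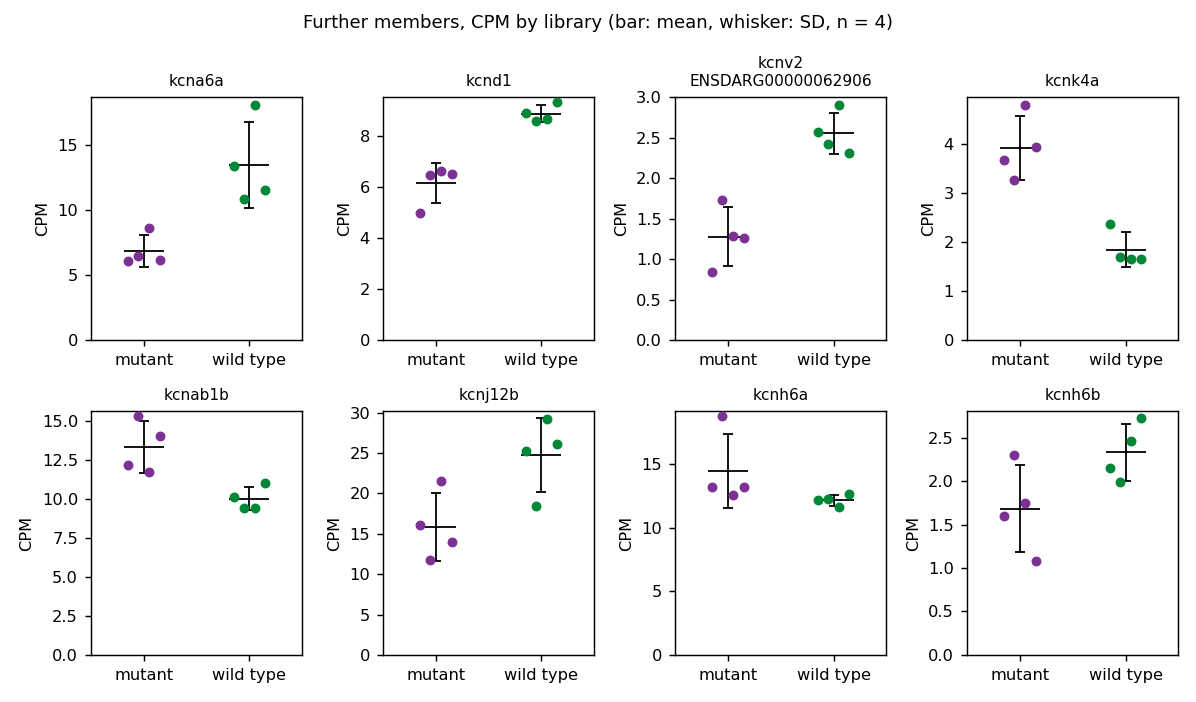
CPM of 8 further potassium channel genes in each of the 4 mutant and 4 wild type libraries, with group means and SD, on linear axes that start at 0. The genotypes are apart for the 5 called genes kcna6a, kcnd1, kcnv2, kcnk4a and kcnab1b, and overlap for kcnj12b, kcnh6a and kcnh6b.

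Zebrafish kept many channel genes as a and b copies from the genome duplication of teleost fish, and the ratio of a to b within a library compares them directly. Of 9 kcn pairs with both copies tested, 1 changed its ratio (limma, adjusted p under 0.05), against 16.5% of 1745 pairs of all gene families. The pair was kcnh6, whose human relative encodes an ERG channel. Its a copy had 13.3, 18.8, 12.6 and 13.2 CPM in mutants, against 12.2, 12.3, 11.6 and 12.7 CPM in wild types. Its b copy had 1.60, 2.31, 1.75 and 1.08 CPM in mutants, against 2.151, 1.99, 2.47 and 2.72 CPM in wild types. Neither copy passed alone, with log2 fold changes of 0.25 for kcnh6a and -0.47 for kcnh6b. The ratio of kcnh6a to kcnh6b was 1.66-fold higher in mutants (log2 change 0.73, 95% interval 0.29 to 1.17, limma adjusted p = 0.0341). This call was lost when mutant 1, 2 or 4 or wild type 1, 3 or 4 was dropped, with an adjusted p of 0.0505 to 0.0934. The other 8 ratios changed by between -0.21 for kcnab1 and 0.55 for kcnq5 on the log2 scale and did not pass.

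Few splicing events of kcn transcripts passed an FDR of 0.05. The authors' deposited splicing tables list 67 events in 33 kcn genes, of which 2 had an FDR under 0.05 (2.99%), against 8.84% of 37768 events of all genes. The table headers name the sides compared only as sample 1 and sample 2, with 4 libraries each, so the values are given here for sample group 1 and sample group 2 and not by genotype. Both events were skipped exons, and inclusion is the share of transcripts that keep the exon, as the authors' deposited table gives it.

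An exon of kcnd2, the main A-type Kv4 channel of neuron dendrites, lies at chr4:10549612-10549710 on the plus strand of GRCz10. It spans 99 bases, a multiple of 3. In the authors' deposited table its inclusion was 0.273, 0.238, 0.239 and 0.278 in group 1, against 0.133, 0.200, 0.138 and 0.140 in group 2 (difference 0.104, authors' FDR = 0.0318). The groups did not overlap, and the values rest on few reads, with 73 inclusion and 105 skipping junction counts in group 1 against 51 and 146 in group 2. The count level of kcnd2 did not pass (log2 fold change of mutants over wild types -0.22, edgeR adjusted p = 0.400).

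The other exon was in kcnip3a, which encodes a KChIP subunit also known as the transcriptional repressor DREAM. It lies at chr8:42892129-42892199 on the plus strand of GRCz10, and its 71 bases are not a multiple of 3, so skipping it shifts the reading frame if the exon is coding. Its inclusion in the authors' deposited table was 0.949, 0.970, 0.976 and 0.980 in group 1, against 1.0, 1.0, 0.993 and 1.0 in group 2 (difference -0.03, authors' FDR = 0.0269). Skipping was rare in both, with 20 skipping junction counts in group 1 and 1 in group 2, beside 1251 and 1243 inclusion counts. The level of kcnip3a averaged 20.3 CPM in mutants and 20.3 CPM in wild types (edgeR adjusted p = 0.998).

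Other genes of membrane excitability were read from the same edgeR test, against the 14.2% of all genes called. Of 15 voltage-gated sodium channel genes, 1 was lower and the median log2 fold change was -0.29. The lower gene was the beta subunit gene scn1bb at 41.7 ± 2.87 CPM in mutants against 52.1 ± 4.48 CPM in wild types (SD, n = 4 each, edgeR adjusted p = 0.0355), a call lost when mutant 1, 3 or 4 or wild type 1, 3 or 4 was dropped, with an adjusted p of 0.0752 to 0.0998. Of 49 calcium channel genes, 1 was higher and 1 lower, with a median of -0.10. The higher gene was cacna2d3, a subunit that brings calcium channels to the membrane, at 41.6 ± 3.97 CPM in mutants against 22.9 ± 1.76 CPM in wild types (log2 fold change 0.86, edgeR adjusted p = 3.77e-04). The lower gene was cacng6b (log2 fold change -1.04, edgeR adjusted p = 0.0313), a call lost when mutant 1, 2 or 4 or wild type 1, 3 or 4 was dropped, with an adjusted p of 0.0503 to 0.0863.

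Of 16 HCN and CNG genes, the cyclic nucleotide-gated relatives of Kv channels, 1 was higher and 4 lower. Among the lower ones were a gene for each subunit of the cone photoreceptor channel, with cnga3a at 22.9 ± 3.42 CPM in mutants against 40.2 ± 4.52 CPM in wild types (edgeR adjusted p = 0.00262) and cngb3 at 13.6 ± 1.68 CPM in mutants against 22.1 ± 2.73 CPM in wild types (edgeR adjusted p = 0.00498). Both were kept whichever library was left out. Their relatives cnga3 (log2 fold change -0.17, edgeR adjusted p = 0.394) and cngb3.1 (log2 fold change 0.08, edgeR adjusted p = 0.890) did not pass. The other lower genes were cnga2 (ENSDARG00000100436) and cnga4, of the type used by olfactory neurons in mammals, with log2 fold changes of -0.88 (edgeR adjusted p = 0.0239) and -0.87 (edgeR adjusted p = 0.0491). The level of cnga4 was low, at 0.625 ± 0.181 CPM in mutants against 1.14 ± 0.120 CPM in wild types. Whether its call is kept without single libraries was not read. The call of cnga2 was lost when mutant 1 or wild type 1 or 3 was dropped, with an adjusted p of 0.0516 to 0.0701. The pacemaker channel gene hcn5 was higher (log2 fold change 0.62, edgeR adjusted p = 0.0257), a call lost when mutant 1, 3 or 4 or wild type 1 or 4 was dropped, with an adjusted p of 0.0514 to 0.0737. Of 12 chloride channel genes, the endosomal gene clcn6 was higher (log2 fold change 0.46, edgeR adjusted p = 0.0163), though not without mutant replicate 1 (adjusted p = 0.0506), and clcn2 (ENSDARG00000104550) lower (log2 fold change -0.51, edgeR adjusted p = 0.0141). Of 16 sodium-potassium ATPase genes 0 passed, against 3 higher and 4 lower at an unadjusted p of 0.05, 1 higher and 4 lower with DESeq2 and 0 higher and 2 lower with limma voom. Of 15 partner genes of Kv and BK channels 0 passed, against 1 higher and 1 lower at an unadjusted p of 0.05, 1 higher with DESeq2 and 0 with limma voom.

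Some markers of the tissues that use these channels were lower. Calls made up 8.33% of neuron, 22.2% of skeletal muscle, 16.7% of heart, 20% of glia and 14.3% of hair cell markers. Of all genes, 14.2% were called in either direction and 5.11% were called lower. Of 12 neuron markers, 10 had a log2 fold change below 0, with a median of -0.12, and 1 was lower, the synaptic vesicle fusion gene snap25a. That call was lost when mutant 1 or 3 or wild type 3 or 4 was dropped, with an adjusted p of 0.0543 to 0.0623. Neuron markers summed to 1635 to 1990.5 CPM in mutants and 1858 to 2053 CPM in wild types. All 9 skeletal muscle markers lay below 0, and 2 were lower, the actin gene actc1b and the troponin gene tnni2a.4. The 9 markers summed to 28327 to 38507 CPM in mutants and 45617 to 61295 CPM in wild types. Of the markers in this sum, actc1b had the largest difference between group means (13411 ± 2269 CPM in mutants against 21695 ± 3897 CPM in wild types). DESeq2 called 4 of the 9 lower, where it called 20.4% of all genes in either direction. In 5 of the 9 every mutant lay below every wild type, as in 8.71% of all genes. The call of actc1b was lost without mutant replicate 3 (adjusted p = 0.0506). Lower calls were also made for 1 of 6 heart markers (the myosin gene myh6), 2 of 10 glia markers (mbpa and sox10) and 1 of 7 hair cell markers (s100s). The call of mbpa was lost when mutant 1, 3 or 4 or wild type 3 or 4 was dropped, with an adjusted p of 0.0546 to 0.0701, and that of sox10 when mutant 1, 2 or 3 or wild type 1 or 3 was dropped, with an adjusted p of 0.0535 to 0.0717. The call of s100s was lost without mutant 3 (adjusted p = 0.0520). The log2 fold change was above 0 for 5 of 7 hair cell markers, among them pvalb9 (0.39, edgeR adjusted p = 0.116), and for the heart markers vmhc (0.43, edgeR adjusted p = 0.0748) and nppb (1.88, edgeR adjusted p = 0.158). DESeq2 called 1 heart marker higher and 2 lower. Of 8 pigment cell and 5 beta cell markers 0 passed with edgeR, at an unadjusted p of 0.05, with DESeq2 or with limma voom. Of 4 vessel and smooth muscle markers 0 passed with edgeR and limma voom, and 1 was higher with DESeq2 and at an unadjusted p of 0.05. The part of these markers in the medians of the channel subfamilies was not tested.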

How the data were processed

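Read counts per Ensembl gene of 8 libraries (TruSeq stranded, polyA-selected, per the labels' protocols) were deposited by the authors as whole numbers. The submitters' processing notes name featureCounts, STAR 2.5.2b, TopHat2 2.0.13 and the build GRCz10. For the aligner that fed the counts, the strand setting and the annotation release, nothing was given in the sources used here. Overlapping and near-identical genes are therefore uncertain. The authors' deposited splicing tables (rMATS column names, per the file headers) give inclusion fractions, junction counts, p-values with FDR and other annotation columns, and were used as given. A deposited transcript-level table of fold values, scores and p-values was not used.

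Symbols came from the splicing tables for 33 members and from an Ensembl name table for 91. Another 5385 of all 31953 genes had no symbol and could not be members. The members, marker lists and gene lists were chosen with earlier results of these data known. Genes that passed edgeR's filterByExpr (minimum count 10) were fitted with edgeR 4.0.16 (TMM, quasi-likelihood, genotype as the only term, all 8 libraries), with Benjamini-Hochberg adjustment over 23680 genes. Ratios of a and b copies were tested with limma 3.58.1 on log2 CPM with a prior count of 2. The rule for named genes took all members called, the member with the highest mean CPM of each symbol stem, copy pairs and splicing events that passed, and up to 3 rises and 3 falls per list. Members just short of the threshold, the further kcnj1 and kcnv2 genes, kcnj11l and kcnj8 were named after their values were seen. So were the relatives of cnga3a and cngb3, cnga4, abcc9 and all marker genes that did not pass. Alternatives were DESeq2 1.42.0, limma voom, other scalings and filters, a replicate block and leaving out each library. The code was tested on simulated data. Intervals are at 95%.

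Replicate numbers are shared by the genotypes, but residuals of libraries with the same number correlated at 0.0228, 0.0345, -0.067 and -0.051, so the numbers were not taken to pair them.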

Additional observations from a re-analysis of the deposited data

Results flagged for a closer look

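In each of 108 groups of 4 libraries, the library farthest from the others was compared with the spread of the group. The groups were each named gene, and the summed CPM of all kcn, inward rectifier and Kv1 genes, in either genotype. A library stood apart in 15 groups. Chance alone flags about 1 in 20 groups.

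Among potassium channel genes, kcnh6a in mutant replicate 2 was at 18.8 CPM while the other mutants were at 12.6 to 13.3 CPM. Its copy ratio call is given without that library in the text on copies. The gene kcna6a in mutant replicate 3 was at 8.65 CPM, above the other mutants at 6.05 to 6.48 CPM, yet below every wild type. The gene kcnd1 in mutant replicate 1 was at 4.98 CPM, with the other mutants at 6.46 to 6.63 CPM. In wild type replicate 1 kcnk4a was at 2.38 CPM, with the other wild types at 1.66 to 1.70 CPM. The gene kcna1 (ENSDARG00000062942) in mutant replicate 4 was at 7.27 CPM, with the others at 9.40 to 9.82 CPM. In wild type replicate 4 kcnip1b was at 30.8 CPM, with the others at 24.9 to 25.6 CPM. The gene kcne4 stood apart in both genotypes, at 3.35 CPM in mutant replicate 4 against 5.84 to 6.10 CPM in the other mutants, and at 4.12 CPM in wild type replicate 2 against 4.95 to 5.08 CPM in the other wild types.

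Among the other genes, mutant replicate 2 stood apart for actc1b (10023 CPM, others 14315 to 14824), cnga3a (28.0 CPM, others 21.09 to 21.2) and cngb3 (16.1 CPM, others 12.5 to 13.05). Wild type replicate 2 stood apart for actc1b (27535 CPM, others 19497 to 19884), s100s (33.5 CPM, others 22.3 to 23.7) and gnat2 (695 CPM, others 612 to 620.3). For trpv6 wild type replicate 4 was at 93.9 CPM and the others at 143 to 147 CPM. Mutant replicate 2 and wild type replicate 2 together account for 8 of the 15 flags.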

How the results depend on the processing

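No called result reversed its direction under any alternative run. The 10 kcn calls were all kept under the other scalings, filters and tools. DESeq2 called 18 kcn genes lower and 2105 of all genes lower. Other scalings moved the median log2 fold change of all genes to between -0.017 and -0.004. Leaving out each library in turn gave 1 to 3 kcn genes higher and 6 to 15 lower, 1419 to 2255 of all genes higher and 671 to 1266 lower, and a kcn median log2 fold change of -0.24 to -0.13. It gave 0 to 1 kcn copy pairs called and a kcnh6 log2 ratio change of 0.57 to 0.83. Of the 2 splicing events of the authors' deposited tables, 0 passed an FDR of 0.01 and 1 had an inclusion difference of at least 0.1. With a replicate block, though the numbers do not pair the libraries, edgeR called 1307 of all genes higher and 612 lower, 1 kcn gene higher and 0 copy pairs (kcnh6 log2 ratio change 0.73, adjusted p = 0.0866), and 6 of the 10 kcn calls remained. Of the 122 members tested, 12 averaged under 1 CPM, where the number of counts limits the precision.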
